A study of Homo sapiens with 42 samples.

Results

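The comparison described here is that of H1299 cells 8 h after 2 Gy of gamma radiation (3 arrays) with the same line at 0 h (6 arrays), over every gene of the deposited table that carried a single symbol. A gene with several entries was represented by its brightest entry on average, so that 18404 genes were compared, the same 18404 that the table holds for all 42 arrays of the series. H1299 is an established non-small cell lung carcinoma line, named radioresistant by the study, and H460 is a large-cell lung carcinoma line, named radiosensitive. Each line was measured on 6 arrays at 0 h and on 3 at every later time (2, 4, 8, 12 and 24 h), numbered as biological replicates in the labels. All groups were of exponentially growing monolayers in RPMI medium with fetal bovine serum, none labelled with a genetic change or a drug, and differed by line and by time after the single dose of 2 Gy. Later times have no array labelled as unirradiated, so the time since irradiation and the time in culture cannot be told apart. The 0 h arrays are described in the labels as taken before irradiation; the protocol also mentions control cells that were not irradiated and were incubated for the same times, and whether any of the 6 arrays came from those is not stated. The labels do not say whether the replicates came from separate cultures, so p-values measure the spread between these samples, which may be technical.

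As background, ionizing radiation breaks both strands of DNA. The kinases ATM and ATR signal the breaks to cell cycle checkpoints, which delay S phase and hold cells in G2 before mitosis. In cells with p53 the protein is stabilized and switches on CDKN1A, which holds cells in G1, and MDM2, which returns p53 to low levels. Genes of mitosis are repressed in resting cells through the DREAM complex and switched on in G2 by MuvB with B-MYB and FOXM1, at promoters that carry a CHR element and CCAAT boxes.

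Values are log2 array intensities as deposited, and changes are log2 differences from 0 h with the standard error of the model. A gene was called where limma's adjusted p (Benjamini-Hochberg over 18404 genes) was under 0.05. The middle of the arrays lay close together, with medians of 6.11 to 6.14 over the 9 arrays. Their widths did not: the interquartile range over genes was 3.24 to 3.69 on the 6 arrays at 0 h and 3.76 to 3.88 on the 3 arrays at 8 h, and 0 h replicate 2 was the narrowest. Width therefore moves with the comparison, and its part in the results was not tested; values with width as a covariate are given beside the counts and the called genes named here that it moved by over 1.5 times. The epithelial keratins KRT8 and KRT18 stood at 10.81 and 12.12 and vimentin (VIM) at 11.94 at 0 h, while CDH1 and EPCAM, which define epithelial cells, were near the bottom of the scale at 3.71 and 3.67. CDKN2A stood at 7.42 in H1299 and 5.54 in H460. Of 40 measured markers of leukocytes, fibroblasts, endothelium and lung alveoli, 0 were called higher and 2 lower at 8 h.

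At 8 h, 4524 genes had changed (24.6% of those tested), of which 2769 were higher (15%) and 1755 lower (9.54%). The changes were mostly small: 808 rose and 165 fell by at least 0.5 on the log2 scale, and 35 rose and 3 fell by at least 1. All 3 arrays at 8 h lay above all 6 at 0 h for 2823 genes (15.3%) and below them for 1743 (9.47%). The median change of all genes was -0.043. The shares of 15% higher and 9.54% lower are those beside which the count of each list is set. They take no account of level, and the share called differed with the level at 0 h. Of 10 groups ranked by 0 h level, the dimmest (median 2.9) had 18 of 1841 genes higher and 19 lower. The group with a median of 7.87 had 517 of 1840 higher and 183 lower, and the brightest (9.83) 405 and 259 of 1841. The lists differ in level and were not compared with genes of like level. In H460 at 8 h the shares of all genes were 10.7% higher and 6.22% lower. The H460 arrays were also wider at 8 h, with mean interquartile ranges of 3.34 at 0 h and 3.64 at 8 h. In H1299 these were 3.58 and 3.81. The H460 changes are given without width as a covariate, and its part in them was not tested. Leaving out 8 h replicate 3 lowered the count of changed genes to 2628, and with array width as a covariate it was 2865.

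The genes with the largest rises encode a feedback inhibitor of growth factor signalling, parts of the centriole and spindle, and a set of zinc finger and germ cell genes. BLID (entry 7952309), which encodes a small BH3-like protein linked to cell death, stood at 4.32, 4.54 and 5.36 (lowest, median and highest of 6 arrays) at 0 h and at 6.37, 6.63 and 6.55 on the 3 arrays at 8 h. It rose by 1.86 ± 0.19 (3.63-fold, adjusted p = 2.31e-07, limma). The largest rises and falls were named only where the arrays at 8 h and 0 h did not overlap, so the gap in these genes follows from the choice. The zinc finger gene ZBTB41 (entry 7923119) ran from 6.42, 6.76 and 6.95 at 0 h to 8.40, 8.43 and 8.39 at 8 h. It rose by 1.68 ± 0.13 (3.20-fold, adjusted p = 5.39e-09, limma). SPRY4 (entry 8114797), a Sprouty protein that dampens signalling from receptor tyrosine kinases to MAP kinase, had 7.91, 8.06 and 8.25 at 0 h and 9.47, 9.54 and 9.55 at 8 h. Its rise of 1.45 ± 0.066 (2.73-fold, adjusted p = 1.71e-13, limma) had the smallest p-value of all genes.

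The bitter taste receptor gene TAS2R31 rose by 1.4 ± 0.20 and WASHC1, a member of the WASH complex that acts on endosomal actin, by 1.22 ± 0.12; both have near-identical copies, so the copy measured is uncertain. SASS6, which builds the cartwheel from which a new centriole grows, stood at 6.12, 7.01 and 7.25 at 0 h and 8.03, 8.03 and 8.18 at 8 h and rose by 1.20 ± 0.16. CCDC18 rose by 1.17 ± 0.16, the cytokinesis kinesin KIF20B by 1.16 ± 0.16 and the kinetochore motor CENPE by 1.13 ± 0.14. TEX15 and SYCP2, known from meiosis in germ cells, rose by 1.12 ± 0.14 and 1.11 ± 0.16. The remaining members of the 15 largest rises were ZFC3H1 (1.11 ± 0.11), which feeds nuclear RNA to the exosome, the inositol transporter SLC5A3 (1.10 ± 0.13), the ubiquitin ligase G2E3 (1.10 ± 0.13) and ZNF441 (1.10 ± 0.19). By the naming rule all 3 arrays of each lay above all 6 at 0 h. Smaller changes with array width as a covariate were those of SASS6 (0.71), KIF20B (0.71), CENPE (0.75) and SYCP2 (0.62), and all 4 stayed called (adjusted p 1.02e-05 to 0.000107).

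The largest falls were led by small nuclear RNA genes and by secreted or transcriptional regulators. RNVU1-15, a variant of U1, stood at 7.64, 7.98 and 8.09 at 0 h and 6.57, 6.65 and 6.75 at 8 h and fell by 1.29 ± 0.12 (adjusted p = 1.55e-07, limma). CCN1 (CYR61), a matricellular protein and target of YAP, had 9.99, 10.25 and 10.33 at 0 h and 9.32, 9.19 and 9.22 at 8 h. It fell by 0.98 ± 0.067 (adjusted p = 6.07e-10, limma). By the naming rule the 8 h arrays of each of the largest falls lay below all those at 0 h. ID2, which blocks DNA binding by helix-loop-helix factors, went from 8.02, 8.07 and 8.21 at 0 h to 6.91, 7.32 and 7.28 at 8 h and fell by 0.92 ± 0.089 (adjusted p = 1.55e-07, limma), with 8 h replicate 1 the lowest.

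The collagenase MMP1 had 6.34, 6.49 and 6.69 at 0 h and 5.68, 5.59 and 5.61 at 8 h and fell by 0.87 ± 0.11. RNU4ATAC and RNU11, RNAs of the minor spliceosome, fell by 1.06 ± 0.20 and 1.01 ± 0.14, and the U1 variants RNVU1-4 and RNVU1-3 fell by 0.85 ± 0.13 and 0.84 ± 0.15. The histones H4C14 and H2AC14 fell by 0.78 ± 0.11 and 0.75 ± 0.27. BRF2, a factor that directs RNA polymerase III to promoters such as that of U6, fell by 0.76 ± 0.077. The list closed with FLJ42627 (-0.85 ± 0.21), CES1 (-0.77 ± 0.24), SERPINB7 (-0.75 ± 0.13) and NAP1L2 (-0.74 ± 0.11). Single arrays decided 2 of these calls: that of H2AC14 (adjusted p = 0.0463) was lost without any 1 of the 3 arrays at 8 h or without 0 h replicate 1, 3, 5 or 6 (adjusted p 0.0599 to 0.15), and that of CES1 without 8 h replicate 1 (0.0585) or 3 (0.0907). With array width as a covariate the change of CES1 was -0.059 (adjusted p = 0.862) that of FLJ42627 was -0.60 (adjusted p = 0.102) and that of H2AC14 was -1.27 (adjusted p = 0.00259).

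**Figure D1:**
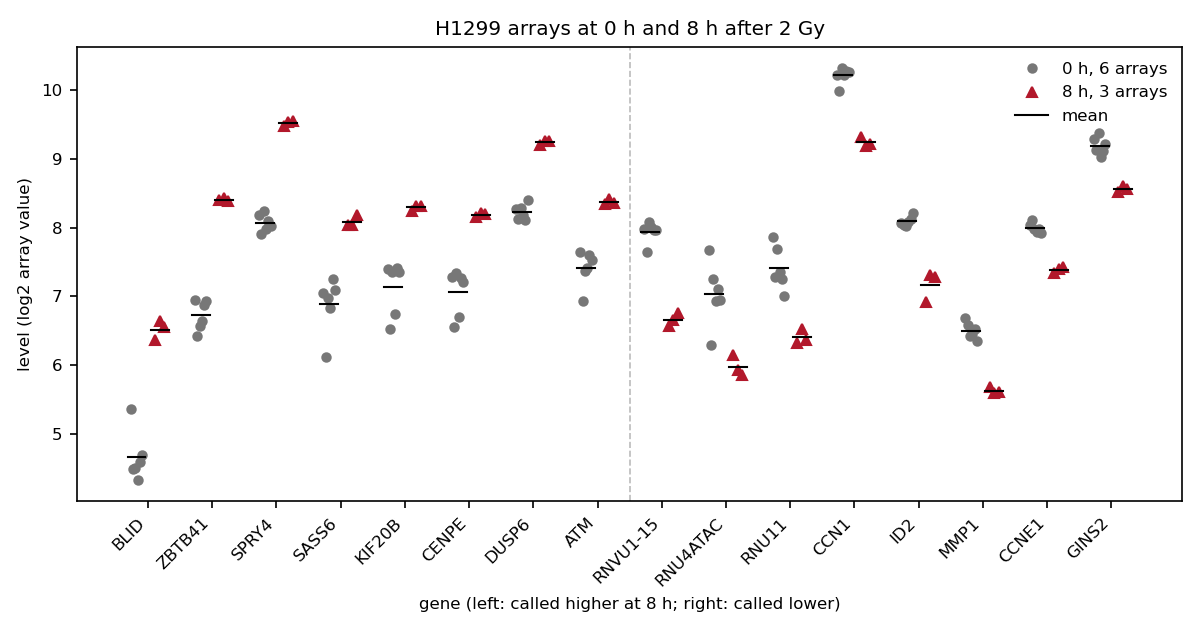
Log2 array values of 16 genes in H1299 at 0 h (circles, 6 arrays) and 8 h (triangles, 3 arrays), with group means as bars. For each gene the 3 triangles lie wholly above (left) or wholly below (right) the circles, as the naming rule required of the largest rises and falls. The single low circles of SASS6 and RNU4ATAC and the high one of BLID show how uneven the 0 h group was.

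Genes of mitosis rose broadly. Of 161 measured members of 5 lists, 101 were higher (62.7%) and 3 lower, with a median change of 0.29 against -0.043 for all genes, and in 99 of them all 3 arrays lay above all 6 at 0 h. In a bulk culture, more cells in G2 or mitosis and more of these mRNAs in each cell cannot be told apart. The share was highest for centrosome and centriole genes (34 of 41 higher, 0 lower, median 0.50), cohesin and condensin (19 of 23 and 0, median 0.42) and mitotic kinesins (11 of 14 and 0, median 0.51). It was lower for regulators of mitotic entry and anaphase (20 of 39 and 1, median 0.19) and for kinetochore and spindle checkpoint genes (20 of 47 and 2, median 0.14). The 3 members that fell, named after their values were seen, were the CDK subunit CKS1B (-0.22 ± 0.05) and the kinetochore proteins DSN1 (-0.28 ± 0.077) and NSL1 (-0.27 ± 0.08), the last not called without 8 h replicate 1 or 2 (adjusted p = 0.0683 and 0.0517) or with array width as a covariate (0.08), which moved DSN1 to -0.46.

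ASPM, which focuses spindle poles, stood at 7.76, 8.18 and 8.46 at 0 h and 9.16, 9.23 and 9.24 at 8 h. It rose by 1.08 ± 0.12 (2.11-fold, adjusted p = 7.97e-07, limma), with no overlap. TOP2A, the topoisomerase that untangles sister chromatids, was bright and tight, with 9.80, 9.93 and 10.06 at 0 h and 10.63, 10.66 and 10.69 at 8 h. It rose by 0.74 ± 0.063 (adjusted p = 2.37e-08, limma). PCM1, the scaffold of centriolar satellites, rose by 0.66 ± 0.073 and CEP97, which caps centrioles, by 0.64 ± 0.086.

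Among the motors KIF14 rose by 0.96 ± 0.10, KIF18A, which trims kinetochore microtubules, by 0.79 ± 0.086, KIF11, which pushes spindle poles apart, by 0.68 ± 0.093, and the midzone motor KIF23 by 0.50 ± 0.07. At the kinetochore CENPF rose by 0.91 ± 0.093, KNL1 by 0.75 ± 0.09 and SGO2, a guardian of cohesion, by 0.97 ± 0.11. ESCO1, which acetylates cohesin, rose by 0.95 ± 0.13, the cohesin loader NIPBL by 0.70 ± 0.088 and the condensin subunits SMC4 and SMC2 by 0.68 ± 0.083 and 0.62 ± 0.074. The cytokinesis activator ECT2 rose by 0.60 ± 0.083 and the spindle protein HMMR by 0.61 ± 0.09. The kinase PLK1, which drives entry into mitosis, rose by 0.37 ± 0.07. With array width as a covariate 65 members of the 5 lists were higher and 7 lower (median 0.16); entry regulators then had 9 higher, kinetochore genes 12 higher and 6 lower, and kinesins 7 higher. Under that covariate KIF11 was at 0.42, ESCO1 at 0.57 and PLK1 at 0.22, all 3 still called. In H460 at 8 h 38 of the 161 mitosis genes were higher and 1 lower (10.7% and 6.22% of all genes, list median 0.19). The median of kinetochore genes was 0.24 in H460, above that in H1299 (0.14). A test of the difference between the lines called 17 of the 161 higher and 8 lower in H1299 (3.55% and 6.56% of all genes).

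The promoters of 4 of these genes are printed because they hold the CHR letters TTTGAA; they were the 4 risers of the mitosis lists with the smallest p among those with such a match. Each sequence is the 250 bases before the annotated start (RefSeq, GRCh38.p14), written 5′ to 3′ along the gene's strand, with TTTGAA and the CCAAT box letters CCAAT in capitals on whichever strand they lie. The windows are chr17:40417897-40418146 (TOP2A), chr11:28108157-28108406 (KIF18A), chr1:197146670-197146919 (ASPM) and chr2:233854536-233854785 (HJURP), all on the minus strand.
TOP2A: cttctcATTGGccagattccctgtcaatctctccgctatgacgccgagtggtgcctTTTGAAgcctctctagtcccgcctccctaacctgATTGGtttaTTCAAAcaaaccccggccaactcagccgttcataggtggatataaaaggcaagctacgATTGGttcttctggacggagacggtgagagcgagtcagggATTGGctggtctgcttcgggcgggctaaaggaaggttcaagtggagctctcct
KIF18A: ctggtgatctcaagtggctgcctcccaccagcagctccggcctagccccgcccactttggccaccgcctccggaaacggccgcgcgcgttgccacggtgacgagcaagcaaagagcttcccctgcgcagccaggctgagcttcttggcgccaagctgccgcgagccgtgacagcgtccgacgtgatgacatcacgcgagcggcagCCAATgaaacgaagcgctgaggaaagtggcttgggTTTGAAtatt
ASPM: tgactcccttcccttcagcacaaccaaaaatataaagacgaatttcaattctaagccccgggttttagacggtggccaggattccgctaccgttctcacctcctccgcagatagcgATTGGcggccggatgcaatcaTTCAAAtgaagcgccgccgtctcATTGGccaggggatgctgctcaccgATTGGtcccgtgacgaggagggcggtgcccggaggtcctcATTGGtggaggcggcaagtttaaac
HJURP: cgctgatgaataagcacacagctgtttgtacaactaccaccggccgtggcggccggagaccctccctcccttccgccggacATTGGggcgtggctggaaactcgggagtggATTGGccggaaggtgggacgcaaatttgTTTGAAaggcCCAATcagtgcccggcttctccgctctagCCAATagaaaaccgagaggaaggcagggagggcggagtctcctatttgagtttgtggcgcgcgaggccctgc

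In KIF18A the CHR match starts 10 bases before the annotated start and the single CCAAT 45 bases before it. TOP2A holds 2 CHR matches and 4 CCAAT matches, ASPM 1 and 4, and HJURP 1 and 4. Over the 86 risers of the mitosis lists with a promoter in the table (of 101), 33 held TTTGAA on either strand (38.4%), compared with 10 of 51 other measured members of these lists (19.6%) and 1448 of 13766 protein-coding genes tested (10.5%). Among all 27305 promoters of the table the share was 13.6%. CCAAT was found in 48 of the 86 (55.8%) in 52.9% of the 51 other members and in 34.6% of the protein-coding genes tested. Both sets of letters together were in 24 of the 86 (27.9%), in 17.6% of the other members and in 4.12% of the genes tested. The E2F letters TTGGCGC or TTCCCGC on either strand, the former of which can share letters with ATTGG, were in 17 of the 86 (19.8%), in 21.6% of the other members and in 11%. Of all protein-coding genes called higher at 8 h, 10.3% held TTTGAA, and of those called lower 6.2%. A match is a description of the letters in this window and not a bound site.

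Few genes passed the test between 8 h and 4 h. Against 4 h, 46 genes were higher (0.25%) and 6 lower (0.0326%) at 8 h by limma, with 1659 at an unadjusted p under 0.05; leaving out any 1 array of either time lowered the 52 calls to between 5 (4 h replicate 3) and 8 (4 h replicate 2 or 8 h replicate 1 or 2). Of the 161 mitosis genes 7 were among these 52, all of them higher at 8 h: PLK1, AURKA, CCNB1, UBE2C, GTSE1, RACGAP1 and HJURP. All but PLK1 and HJURP are named here after their values were seen. HJURP, the chaperone that loads the centromeric histone, had the largest difference of the 7, 0.52 ± 0.058 (adjusted p = 5.53e-05, limma). Its change from 0 h was -0.19 at 2 h, -0.099 at 4 h, 0.42 at 8 h, 0.46 at 12 h and -0.086 at 24 h.

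PLK1 was 0.46 ± 0.08 higher at 8 h than at 4 h (adjusted p = 0.00975), with changes from 0 h of -0.29, -0.094, 0.37, 0.52 and -0.33 at the 5 times in order. At 0 h it stood at 10.27, 10.59 and 10.70 and at 8 h at 10.88, 10.93 and 10.98, with no overlap. The spindle pole kinase AURKA was 0.43 ± 0.081 higher (adjusted p = 0.0217), cyclin B1 (CCNB1) 0.28 ± 0.063 (adjusted p = 0.0477), and UBE2C, which tags mitotic cyclins for destruction, 0.34 ± 0.069 (adjusted p = 0.028). GTSE1 was 0.40 ± 0.069 and RACGAP1 0.29 ± 0.056 higher (adjusted p = 0.00966 and 0.0232). Against 0 h the 8 h rise of CCNB1 did not pass (0.12 ± 0.054, adjusted p = 0.0961), that of AURKA (0.24 ± 0.07) did not pass without 8 h replicate 2 or 3 (adjusted p = 0.0507 and 0.0902), and that of GTSE1 (0.19 ± 0.059) did not pass without 8 h replicate 1 or 2 (0.0825 and 0.069). With array width as a covariate the 8 h change was 0.088 for AURKA (adjusted p = 0.421), 0.051 for CCNB1 (0.623) and 0.18 for GTSE1 (0.0674), none of them called; after quantile normalization GTSE1 (0.207), RACGAP1 (0.11) and PSRC1 (0.213) were not called and CCNB1 was (0.0325). The spindle proteins TROAP and PSRC1, which are in none of the lists and were chosen after their values were seen, were 0.66 ± 0.089 and 0.60 ± 0.078 higher than at 4 h.

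The 6 genes that were lower at 8 h than at 4 h included a pair tied to S phase. Of these 6 calls 1 was kept without 4 h replicate 2 or without 8 h replicate 3, and 0 without any other single array of these times. Cyclin E2 (CCNE2), which opens S phase, was 0.75 ± 0.13 lower (adjusted p = 0.00843): its change from 0 h was 0.48 at 4 h and -0.27 at 8 h, the latter not past the threshold (adjusted p = 0.0676) unless array width was a covariate (-0.53, adjusted p = 0.000267). EXO1, an exonuclease of repair and replication, was 0.29 ± 0.063 lower (adjusted p = 0.0429), going from 0.29 at 4 h to 0.0023 at 8 h against 0 h. The others, all chosen after their values were seen, were TBXT (-0.72 ± 0.15), ANGPTL7 (-0.60 ± 0.12), NXPH2 (-0.48 ± 0.1) and the antisense gene ELOVL2-AS1 (-0.77 ± 0.16). The 2 groups were 3 arrays each, and both are set against the same 6 arrays at 0 h in the changes given.

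**Figure D2:**
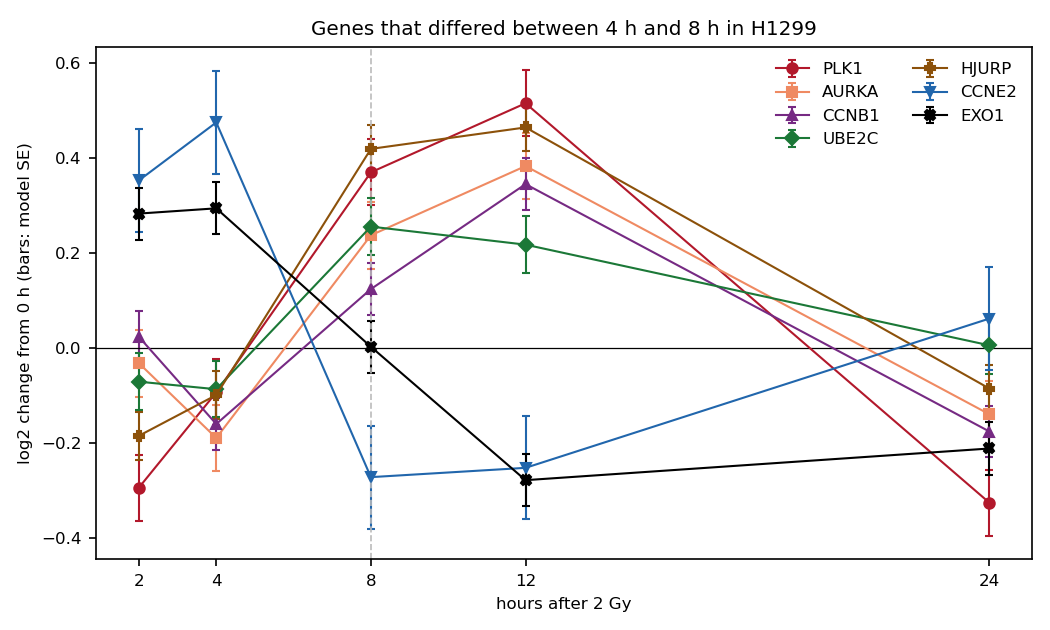
Log2 change from 0 h of 7 genes over the H1299 time course, with model standard errors as bars; all points share the 6 arrays at 0 h. PLK1, AURKA, CCNB1, UBE2C and HJURP lie below 0 at 4 h and above it at 8 and 12 h, while CCNE2 and EXO1 lie above 0 at 2 and 4 h and lower from 8 h on.

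Between 8 and 12 h no gene passed (0 of 18404 by limma, with 994 at an unadjusted p under 0.05; 13 passed in a fit of only the groups compared and 15 with array weights). Of the 161 mitosis genes 54 were higher and 17 lower than 0 h at 2 h (5.88% and 7.93% of all genes), and 102 and 6 at 12 h (16.6% and 13.1%). The medians at 12 h were 0.65 for kinesins, 0.49 for cohesin and condensin and 0.27 for entry regulators. At 24 h they were -0.054, 0.11 and -0.090, and 17 of the 161 mitosis genes were lower and 30 higher than at 0 h (3.21% and 8.53% of all genes). At 4 h the entry regulators had a median of -0.049, with 6 of 39 higher and 8 lower (10% and 5.83% of all genes). Cohesin and condensin had a median of 0.36 at 4 h, with 19 of 23 higher; the difference between the lists was not tested.

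**Figure D3:**
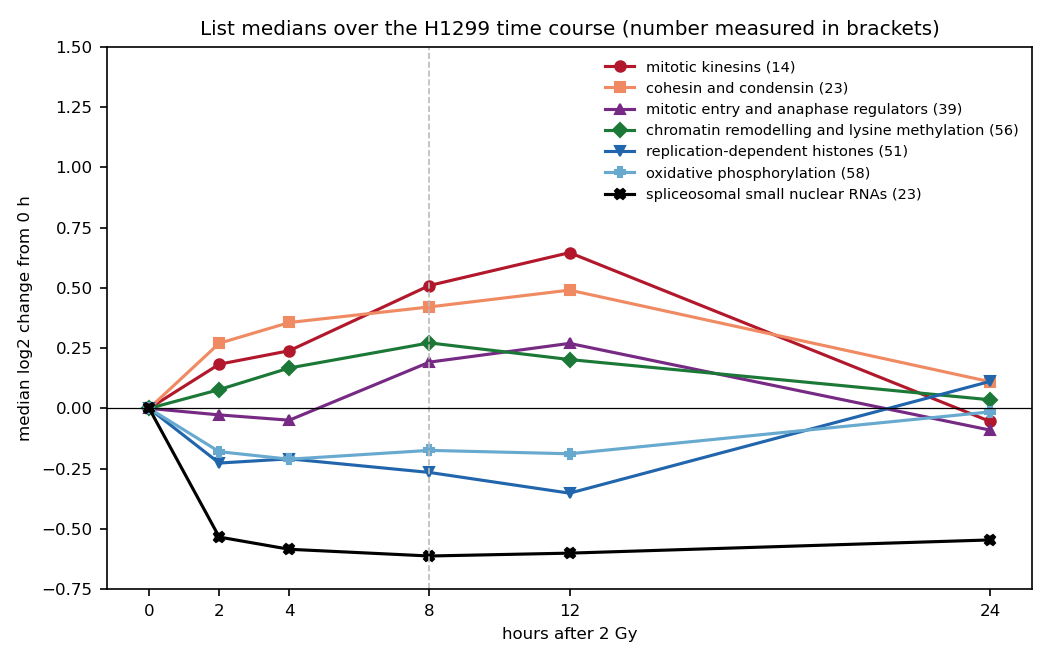
Median log2 change from 0 h of 7 gene lists at each time after 2 Gy in H1299, drawn as points joined by lines; every point shares the 6 arrays at 0 h and the dashed line marks 8 h. Kinesins, cohesin and condensin are highest at 12 h, entry regulators are above 0 at 8 and 12 h, and small nuclear RNAs stay between -0.53 and -0.61 from 2 to 24 h.

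Genes of the G1 to S transition and of replication moved both ways. Of 25 G1/S regulators 5 rose and 5 fell (median -0.010), and of 54 genes of replication origins and forks 12 rose and 15 fell (median -0.029). Cyclin E1 (CCNE1) stood at 7.93, 7.98 and 8.11 at 0 h and 7.33, 7.39 and 7.42 at 8 h and fell by 0.61 ± 0.065 (adjusted p = 4.31e-07, limma), with no overlap. GINS2, a part of the replicative helicase, had 9.03, 9.17 and 9.38 and then 8.52, 8.61 and 8.56 and fell by 0.63 ± 0.074 (adjusted p = 1.49e-06). The flap nuclease FEN1 fell by 0.46 ± 0.066, the sliding clamp PCNA by 0.45 ± 0.086 and the transcription factor E2F1 by 0.40 ± 0.078.

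In the other direction CDK6, a kinase of G1, went from 9.12, 9.44 and 9.58 at 0 h to 10.15, 10.19 and 10.17 at 8 h and rose by 0.78 ± 0.08 (adjusted p = 3.02e-07, limma). RB1, the retinoblastoma protein that restrains E2F, rose by 0.62 ± 0.10, its relatives RBL2 and RBL1 by 0.33 and 0.31, and E2F7, a repressor of E2F targets, by 0.31. TICRR, which starts origin firing, rose by 0.54 ± 0.073 and the polymerase POLA1 by 0.39 ± 0.067. The other 3 G1/S members that fell were CDKN1C (-0.33), CDC25A (-0.30) and E2F2 (-0.28); the calls of CDKN1C, E2F2 and RBL2 were lost without 8 h replicate 3 (0.254), 2 (0.0694) and 3 (0.0554), and that of CDKN1C also without 8 h replicate 1 or 0 h replicate 2, 4 or 6 (0.0576 to 0.0746). With 8 h replicate 3 left out, the replication list had 5 higher and 10 lower, and without replicate 2 it had 8 and 7; with array width as a covariate it had 5 and 26 (median -0.18), and the G1/S list 3 and 6. The calls of RBL2, RBL1 and CDKN1C were lost under that covariate (adjusted p = 0.218, 0.0754 and 0.594), RB1 was at 0.41 and CDC25A at -0.50.

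Replication-dependent histones, which are made in S phase, fell in part. Of 51 measured, 19 fell and 1 rose, with a median of -0.27, and in 9 of them the arrays did not overlap on the lower side (9.47% of all genes). H2BC14 fell by 0.41 ± 0.083 and H4C2 by 0.34 ± 0.08, while H3C8 was the one that rose, by 0.44 ± 0.068. The count that fell was 9, 11 and 9 without 8 h replicate 1, 2 and 3, 30 with array weights and 29 with array width as a covariate. Histone genes resemble each other closely, and the member that an entry reads is uncertain.

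Genes of the damage response rose in part. Of 26 checkpoint genes 12 were higher and 1 lower (median 0.22), and of 43 genes of double-strand break repair and the Fanconi pathway 20 were higher and 3 lower (median 0.23). ATM, the kinase that answers double-strand breaks, stood at 6.92, 7.47 and 7.64 at 0 h and 8.34, 8.42 and 8.36 at 8 h. It rose by 0.96 ± 0.11 (1.95-fold, adjusted p = 1.55e-06, limma), and the groups did not overlap. ATR, which answers single-stranded DNA, rose by 0.74 ± 0.087, the ATM relative SMG1 by 0.61 ± 0.068, RAD50 of the break sensor by 0.52 ± 0.078 and the end-joining kinase PRKDC by 0.45 ± 0.082. The checkpoint list with array width as a covariate had 7 higher and 3 lower (median 0.14), and PRKDC was at 0.26.

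FANCM, a helicase that brings the Fanconi complex to DNA, had 5.53, 6.01 and 6.23 at 0 h and 6.97, 6.93 and 7.08 at 8 h and rose by 1.03 ± 0.12 (adjusted p = 1.55e-06, limma). RIF1, which protects broken ends from resection, rose by 0.79 ± 0.079, the resolvase GEN1 by 0.77 ± 0.088, the BRCA1 helicase BRIP1 by 0.69 ± 0.083 and the polymerase POLQ by 0.65 ± 0.085. The members that fell were the checkpoint histone H2AX (-0.30 ± 0.07) and SHLD1 (-0.42 ± 0.11), RAD51AP1 (-0.37 ± 0.092) and RMI2 (-0.25 ± 0.081), all 4 named after their values were seen. The call of RMI2 was lost without 8 h replicate 1 or 3 (adjusted p = 0.0785 and 0.11) and with array width as a covariate (0.216), and that of SHLD1 after quantile normalization (0.102). Of 35 genes of base, nucleotide excision and mismatch repair 7 rose and 6 fell (20% and 17.1%, median 0.070), against 15% and 9.54% of all genes. Without 8 h replicate 2 these counts were 5 and 2, without replicate 1 they were 5 and 3, and with array width as a covariate 2 and 6.

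Targets of p53 moved both ways in H1299. Of 45 measured, 13 were higher and 8 lower, with a median of 0.060. In H460 at 8 h, by the same test, 29 of the 45 were higher (10.7% of all genes) and 1 lower (6.22% of all genes), with a median of 0.56. The difference between the lines was tested as the H1299 change minus the H460 change over all 42 arrays, which called 1861 genes (10.1%), of which 654 were higher in H1299 (3.55%) and 1207 lower (6.56%). Of the p53 targets 27 were lower in H1299 by that test and 3 higher, the latter being EPHA2, TNFRSF10A and RAP2B. These targets are known from cells with p53, and the contrast of the lines at this list was known from earlier results of these data.

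CDKN1A (entry 8119088) stood at 6.75, 6.87 and 6.99 at 0 h and 7.15, 7.11 and 6.95 at 8 h in H1299, with the third 8 h array inside the range of 0 h. Its change was 0.20 ± 0.071 (adjusted p = 0.0441, limma), a call that was lost without 8 h replicate 1 (0.184) or 2 (0.144), without 0 h replicate 1, 3, 4 or 6 (0.0538 to 0.0889) and after quantile normalization (0.295). In H460 it rose by 1.0 ± 0.13, and the lines differed by -0.80 ± 0.15 (adjusted p = 0.000349). MDM2 (entry 7956989) had 9.03, 9.13 and 9.32 at 0 h and 9.51, 9.50 and 9.50 at 8 h in H1299 and rose by 0.36 ± 0.059 (adjusted p = 8.3e-05), above all arrays at 0 h. It rose by 0.79 ± 0.11 in H460, and the lines differed by -0.43 ± 0.12 (adjusted p = 0.018), a call that was lost without H460 8 h replicate 1 (0.0729) after quantile normalization (0.0624) and with only 0 h replicates 1 to 3 (0.176).

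Other targets went opposite ways or alike. TP53INP1, an autophagy and death protein, rose by 0.49 ± 0.078 in H1299 and by 1.67 ± 0.12 in H460 (difference -1.18 ± 0.14, adjusted p = 1.79e-07). The stress kinase PLK2 stood at 8.34, 8.75 and 8.85 at 0 h and 7.96, 7.93 and 8.07 at 8 h and fell by 0.71 ± 0.092 in H1299, while it rose by 0.44 ± 0.12 in H460. GADD45A, a growth arrest protein, fell by 0.54 ± 0.059 in H1299 and had a change of 0.29 ± 0.10 in H460 (adjusted p = 0.0532). RRM2B, a subunit of ribonucleotide reductase, rose by 0.73 ± 0.13 in H1299 and by 0.66 ± 0.20 in H460, with a difference of 0.07 ± 0.25 (adjusted p = 0.918); with array width as a covariate its H1299 change was 0.44. The receptor tyrosine kinase EPHA2 rose by 0.73 ± 0.079 and the TRAIL receptor TNFRSF10A by 0.59 ± 0.094 in H1299, against changes of -0.05 ± 0.12 and -0.33 ± 0.10 in H460.

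Of 27 genes of the BCL2 family and caspases 5 rose and 4 fell (18.5% and 14.8%, median -0.073), against 15% and 9.54% of all genes. APAF1, the scaffold on which caspase 9 is activated, stood at 7.60, 7.67 and 7.76 at 0 h and 8.40, 8.35 and 8.51 at 8 h and rose by 0.74 ± 0.071 (adjusted p = 1.55e-07, limma). The survival protein MCL1 rose by 0.59 ± 0.081, the inhibitor of apoptosis BIRC2 by 0.46 ± 0.075, CASP2 by 0.35 ± 0.078 and the BH3 protein PMAIP1 (NOXA) by 0.32 ± 0.099. Those that fell were HRK (-0.40), CASP6 (-0.35), CYCS (-0.32) and BID (-0.23). In the fit that left out 8 h replicate 3, the calls of PMAIP1, HRK, CYCS and BID were lost (adjusted p = 0.12, 0.106, 0.218 and 0.0923), which leaves 4 higher and 1 lower; without replicate 2 those of PMAIP1, CYCS and BID were lost (0.0702, 0.0524 and 0.0516), and without 0 h replicate 1 or 5 that of CYCS (0.0564 and 0.0517). With array width as a covariate the list had 4 higher and 2 lower: HRK was at -0.054 (adjusted p = 0.74), PMAIP1 at 0.14 (0.407), CASP2 at 0.17 (0.0936) and BID at -0.21 (0.0774), none of them called, while BIRC2 was at 0.29 and CYCS at -0.53, both called.

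Feedback inhibitors of the MAP kinase pathway rose in several cases. Of 22 measured, 9 were higher and 2 lower (median 0.20), led by SPRY4. DUSP6, the phosphatase that switches off ERK, had 8.11, 8.23 and 8.40 at 0 h and 9.21, 9.26 and 9.26 at 8 h. It rose by 1.01 ± 0.061 (2.02-fold, adjusted p = 6.35e-11, limma), with a wide gap between the groups. ERRFI1, an inhibitor of EGFR, rose by 0.48 ± 0.067. DUSP1, a phosphatase of p38 and JNK, fell by 0.40 ± 0.085 with overlapping arrays, and LRIG3 had a change of -0.41 ± 0.13, not called without 8 h replicate 2 (adjusted p = 0.165), with array width as a covariate (0.286) or after quantile normalization (0.0682). With width the list had 5 higher and 2 lower, and ERRFI1 was at 0.32.

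Of 28 immediate-early genes 8 rose and 8 fell (median -0.052). ZFP36, which destabilizes cytokine mRNAs, rose by 0.83 ± 0.11, PHLDA1 by 0.69 ± 0.061, IER2 by 0.64 ± 0.064 and the factor KLF6 by 0.46 ± 0.063. FOSB, a partner in AP-1, fell by 0.69 ± 0.099 and the stress factor ATF3 by 0.68 ± 0.11; with array width as a covariate the median was 0.045, with 9 higher and 5 lower. Without 8 h replicate 1 the list had 8 higher and 5 lower. Of 22 YAP targets 5 rose and 5 fell (median -0.019). Beside CCN1, the matrix protein CCN2 fell by 0.46 ± 0.055 and ANKRD1 by 0.59 ± 0.099, and GADD45B (-0.35) and FOXF2 (-0.54) were lower. The growth factor TGFB2 rose by 0.89 ± 0.11, with MYOF (0.39), NT5E (0.37), RBMS3 (0.32) and AXL (0.21). With 8 h replicate 2 left out, the calls of RBMS3 and AXL were lost (0.0946 and 0.0612), and without replicate 3 those of AXL and FOXF2 (0.0706 and 0.126). The first of these left 3 higher and 5 lower, as did array width as a covariate, under which RBMS3 (0.366), AXL (0.262) and FOXF2 (0.114) were not called and MYOF was at 0.22 and NT5E at 0.20.

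Among 24 genes of TGF-beta signalling 11 were higher and 2 lower (median 0.13), and with array width as a covariate 6 and 4 (median 0.056). SKIL, a SMAD corepressor that TGF-beta itself induces, stood at 6.85, 7.36 and 7.60 at 0 h and 8.34, 8.50 and 8.43 at 8 h and rose by 1.09 ± 0.12 (adjusted p = 4.67e-07, limma). The 2 that fell were ID2 and ID4, the latter by 0.58 ± 0.092. Of 26 NF-kB targets 6 rose and 1 fell (median -0.035), and with that covariate 4 and 1 (median 0.039). The subunit NFKB2 had 8.26, 8.31 and 8.43 at 0 h and 9.01, 8.93 and 9.14 at 8 h and rose by 0.71 ± 0.062 (adjusted p = 4.08e-08). The cytokine LIF rose by 0.96 ± 0.10, while NFKBIA, the inhibitor IkB-alpha, fell by 0.51 ± 0.086. In the fit that left out 8 h replicate 3, the NF-kB list had 5 higher and 2 lower.

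Of 38 interferon-stimulated genes 8 rose and 1, IRF7, fell (-0.37 ± 0.096), with a median of 0.015. These were 21.05% and 2.63% of the list, against 15% and 9.54% of all genes. The restriction factor SAMD9 rose by 0.98 ± 0.14 and the RNA sensor IFIH1 (MDA5) by 0.79 ± 0.12. Without 8 h replicate 3 the list had 4 higher and 0 lower, the adjusted p of IRF7 being 0.054, without replicate 2 it had 5 and 1, and with array width as a covariate 4 and 1; IRF7 was not called under that covariate (0.102).

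Of 27 genes of cholesterol and fatty acid synthesis 8 rose and 0 fell in H1299 (median 0.15), against 19 and 0 in H460 (median 0.51), and 10 were lower in H1299 by the test of the difference. The desaturase SCD stood at 10.36, 10.71 and 10.86 at 0 h and 11.34, 11.39 and 11.37 at 8 h and rose by 0.69 ± 0.078 in H1299 and by 0.73 ± 0.084 in H460, a difference of -0.036 ± 0.11 (adjusted p = 0.903). The sterol cyclase LSS rose by 0.65 ± 0.079 and the fatty acid synthase FASN by 0.43 ± 0.062 in H1299. Of 26 chaperones and sensors of the endoplasmic reticulum 5 rose and 3 fell (19.2% and 11.5%, median -0.042), against 15% and 9.54% of all genes. In H460 14 rose and 0 fell (median 0.26), and 11 were lower in H1299 by the difference.

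The members that fell there were HERPUD1, a part of the degradation machinery (-0.38 ± 0.083), the unfolded protein response factor XBP1 (-0.29 ± 0.06) and DNAJB9 (-0.39 ± 0.12), the last not called without 8 h replicate 1 or 3 (0.0888 and 0.0664). With 8 h replicate 3 left out, that list had 2 higher and 2 lower, without replicate 1 it had 3 and 2, and with array width as a covariate 2 and 6. Of 27 NRF2 targets 5 rose and 3 fell (18.5% and 11.1%, median -0.0014), against 15% and 9.54% of all genes. In H460 14 rose and 0 fell (median 0.31), with 5 lower in H1299 by the difference. TALDO1, of the pentose phosphate pathway, fell by 0.34 ± 0.069 in H1299. In the fit that left out 8 h replicate 1, the list had 2 higher and 3 lower, without replicate 3 it had 3 and 2, and with array width as a covariate 1 and 6. Of 36 ATF4 targets 8 rose and 7 fell (22.2% and 19.4%, median -0.074). In H460 6 rose and 3 fell (10.7% and 6.22% of all genes, list median 0.071), with 3 higher and 4 lower in H1299 by the difference. DDIT4, an inhibitor of mTORC1, rose by 0.54 ± 0.13 and asparagine synthetase (ASNS) fell by 0.32 ± 0.062; without 8 h replicate 3 that list had 4 and 3, without replicate 2 it had 6 and 3, and with array width as a covariate 3 and 4.

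Genes of the respiratory chain and of the ribosome fell in part in H1299 and rose in part in H460. Both lists are bright, with median 0 h levels of 9.33 and 11.72 in H1299, and the arrays of both lines were wider at 8 h. The H460 counts were not made with width as a covariate. Of 58 genes of oxidative phosphorylation 0 rose and 21 fell in H1299 (median -0.17), against 24 and 0 in H460 (median 0.35), and the difference was called lower in H1299 for 35 of them and higher for 0. COX7C, a subunit of cytochrome oxidase, stood at 9.17, 9.38 and 9.67 at 0 h and 8.91, 8.86 and 8.97 at 8 h. It fell by 0.48 ± 0.10 (adjusted p = 0.0015, limma) and rose by 0.62 ± 0.18 in H460, a difference of -1.10 ± 0.23 (adjusted p = 0.00139). The complex I subunits NDUFB9 and NDUFA9 fell by 0.33 ± 0.073 and 0.33 ± 0.075. Without 8 h replicate 1, 2 or 3 the number that fell was 11, 11 and 13, and after quantile normalization it was 33.

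Of 56 cytosolic ribosomal proteins 0 rose and 15 fell in H1299 (median -0.17), against 22 and 0 in H460 (median 0.28), and 25 were lower in H1299 by the test of the difference. RPL7A had 11.18, 11.42 and 11.78 at 0 h and 10.90, 11.15 and 11.07 at 8 h and fell by 0.44 ± 0.1 (adjusted p = 0.00219), and the lines differed by -0.80 ± 0.14 (adjusted p = 0.000178). RPS13 fell by 0.44 ± 0.096, RPS14 by 0.43 ± 0.064 and RPL35 by 0.39 ± 0.086, the last with overlapping arrays. Without 0 h replicate 2, the narrow array, 31 fell, without 8 h replicate 3 10 fell, and with array width as a covariate 35 fell, with RPL35 at -0.60. Ribosomal protein genes have processed copies elsewhere in the genome, which a probe set may also read. Of 37 genes of ribosome biogenesis 10 rose and 3 fell (median 0.060): POLR1B, a subunit of RNA polymerase I, rose by 0.90 ± 0.13, and the assembly factor MRTO4 fell by 0.37 ± 0.063. With width as a covariate 5 rose and 3 fell (median -0.012), and POLR1B was at 0.56.

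**Figure D4:**
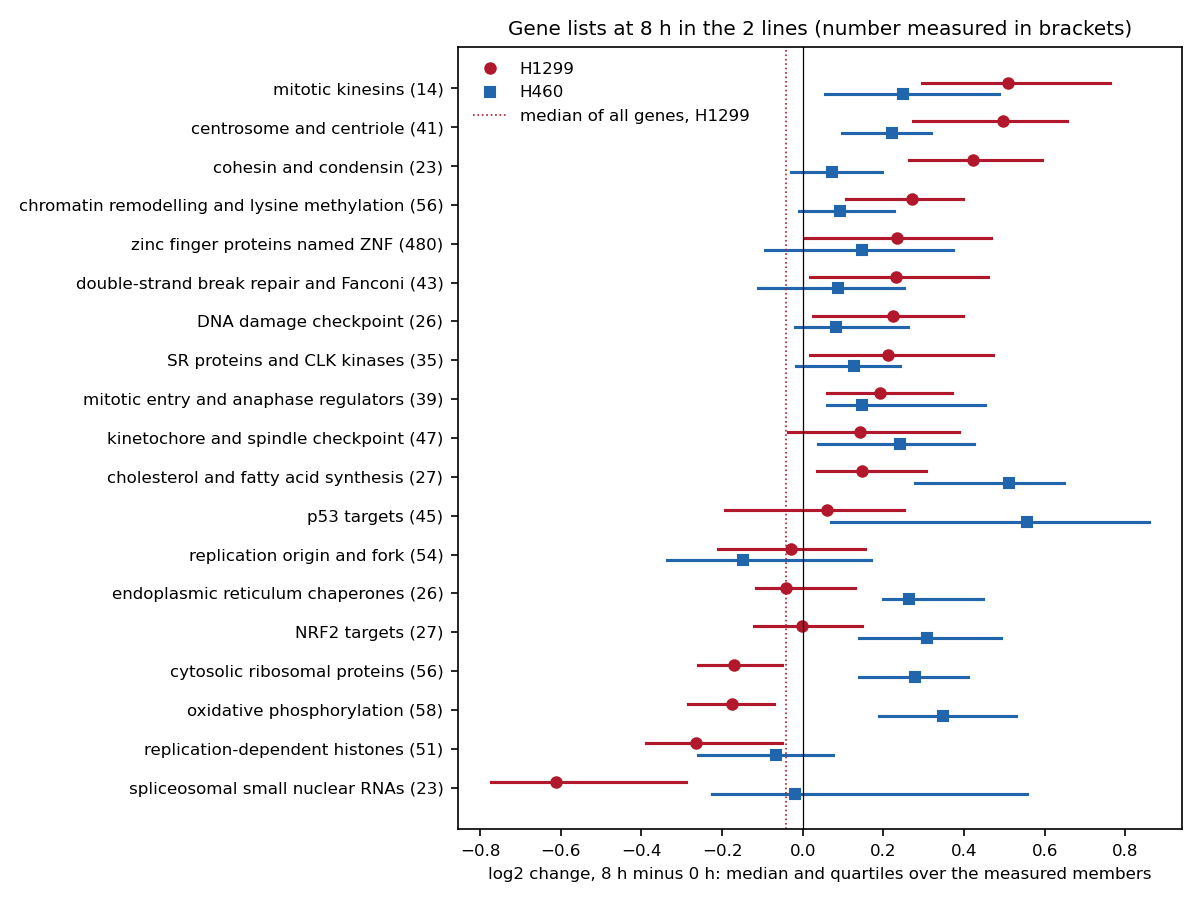
Median (symbol) and quartiles (line) of the log2 change at 8 h over the measured members of 19 gene lists, in H1299 (circles) and H460 (squares), with the median of all genes in H1299 dotted. The medians of the mitosis and chromatin lists lie right of 0 in both lines, with that of kinetochore genes further right in H460. Those of oxidative phosphorylation and ribosomal proteins lie left of 0 in H1299 and right of it in H460.

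**Figure D5:**
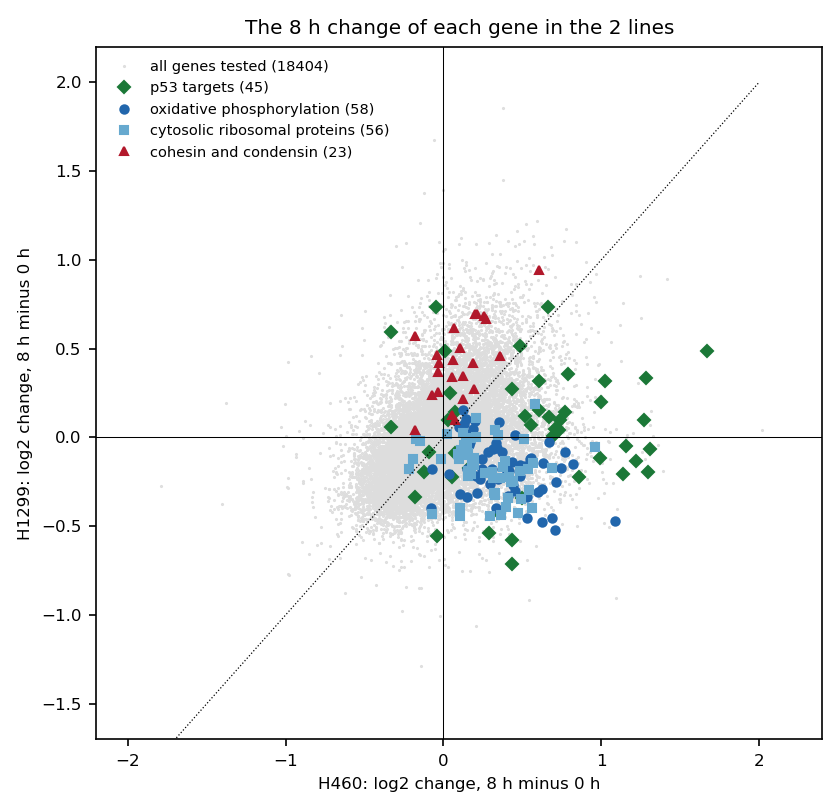
Log2 change at 8 h of each of 18404 genes in H460 (horizontal) and H1299 (vertical), with 4 lists marked and equal change dotted. Most p53 targets, oxidative phosphorylation and ribosomal protein genes lie to the right of 0 and below the dotted line, while cohesin and condensin genes lie above it.

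Of 56 genes of chromatin remodelling and lysine methylation 35 rose and 2 fell (median 0.27), against 6 and 2 in H460 (median 0.093), while the test of the difference called 6 higher and 1 lower in H1299. SMARCAD1, a remodeller that helps resect broken ends, stood at 7.65, 7.96 and 8.16 at 0 h and 8.93, 8.82 and 8.88 at 8 h and rose by 0.93 ± 0.083 (adjusted p = 5.39e-08, limma). ATRX, which deposits histone H3.3 at repeats, rose by 0.79 ± 0.097, CHD9 by 0.70 ± 0.093 and KMT2E by 0.44 ± 0.056. The 2 that fell were the methyltransferases SETD1A (-0.23 ± 0.081) and SETD1B (-0.21 ± 0.073), and neither was called without 8 h replicate 2 or 3 (SETD1A 0.0797 and 0.166, SETD1B 0.103 and 0.161), nor without 0 h replicate 1 or 5 (0.0517 to 0.0629); SETD1A was also lost without 8 h replicate 1 or 0 h replicate 2 or 4 and SETD1B without 0 h replicate 3 (0.0516 to 0.0932). Without 8 h replicate 3 the list had 23 higher and 0 lower, and with array width as a covariate 18 and 0 (median 0.13), with SETD1A at -0.089 (0.56) and SETD1B at -0.21 (0.0889).

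Of 35 SR proteins, SR-related proteins and CLK kinases 18 rose and 3 fell (median 0.21). CLK4, a kinase that phosphorylates SR proteins, had 5.95, 6.41 and 6.62 at 0 h and 7.29, 7.25 and 7.35 at 8 h and rose by 0.92 ± 0.11 (adjusted p = 1.77e-06, limma). PNISR and LUC7L3 rose by 0.73 ± 0.075 and 0.70 ± 0.078. The 3 that fell, TRA2B (-0.22), SRRM1 (-0.19) and SRSF4 (-0.16), were each lost without any 1 of the arrays at 8 h (adjusted p 0.0514 to 0.171), and for some single arrays at 0 h (0.0527 to 0.0796). With 8 h replicate 3 left out, the list had 14 higher and 0 lower, and with array width as a covariate 12 and 5, with TRA2B at -0.35 and SRRM1 at -0.065 (0.611). Of 480 zinc finger genes named ZNF 200 rose and 18 fell (median 0.23), against 106 and 12 in H460, with 27 higher and 11 lower in H1299 by the difference. ZNF292 rose by 0.89 ± 0.094 and ZNF555 by 0.86 ± 0.081. In the fit that left out 8 h replicate 3, these were 144 and 4, without replicate 2 they were 167 and 8, and with array width as a covariate 106 and 15; many ZNF genes have close relatives.

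Small nuclear RNAs of the spliceosome fell in part. Of 23 measured, 13 fell and 0 rose at 8 h, with a median of -0.61, and all 3 arrays lay below all 6 at 0 h for 11. Their medians were -0.53, -0.58, -0.60 and -0.55 at 2, 4, 12 and 24 h, all against the same 0 h arrays. In H460 at 8 h 6 of the 23 were higher and 3 lower, and 11 were lower in H1299 by the test of the difference. Probe sets for these genes cannot tell near-identical copies and pseudogenes apart. Of 192 small nucleolar and Cajal body RNAs 13 rose and 20 fell (6.77% and 10.4%, median -0.075), against 15% and 9.54% of all genes. SNORD52, which lies in an intron, rose by 1.14 ± 0.15, and SNORD13, which has a promoter of its own, fell by 0.69 ± 0.11; without 8 h replicate 3 the list had 10 and 12, without 0 h replicate 1 it had 21 and 17, without 0 h replicate 2 it had 13 and 35, without 8 h replicate 2 it had 7 and 15, and with array width as a covariate it had 6 and 55 (median -0.16).

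Of 24 bitter taste receptor genes 7 rose and 0 fell (median 0.21), among them TAS2R20 (0.96 ± 0.20). With array width as a covariate 2 rose. With the dimmest 33.3% of genes left out TAS2R31 was the only member that remained in the fit, and it rose. That filter went by the highest group mean, so a rise can itself keep a gene. Of 340 olfactory receptors 3 rose and 2 fell (median -0.058), a median that was 0.040 with width as a covariate. Epithelial genes had 0 higher and 3 lower of 18 (median -0.18), and mesenchymal genes 4 and 3 of 18 (median 0.024). Without 8 h replicate 3 the epithelial list had 0 and 0 and the mesenchymal list 2 and 0, without replicate 1 they had 0 and 0 and 3 and 2, and without replicate 2 they had 0 and 2 and 2 and 0. These were 0 and 0 and 1 and 1 with array width as a covariate.

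The largest differences between the lines at 8 h came from either line. ZBTB41 was 1.74 ± 0.29 higher in the H1299 change (adjusted p = 0.000102): in H460 it stood at 9.77 ± 0.35 (SD, n = 6) at 0 h and 9.71 ± 0.12 (SD, n = 3) at 8 h, above the H1299 level at both times. BLID and TAS2R31 differed by 1.48 ± 0.31 and 1.4 ± 0.26, with changes of 0.37 ± 0.22 and -0.0024 ± 0.15 in H460. FAM111B, a protease of replicating cells, and CCNE2 differed by 1.57 ± 0.14 and 1.52 ± 0.19. Both fell in H460, with changes of -1.38 ± 0.12 and -1.79 ± 0.15, and their changes in H1299 did not pass (0.20 ± 0.08 and -0.27 ± 0.11).

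On the other side TDO2, which breaks down tryptophan, differed by -1.97 ± 0.24: it rose by 2.02 ± 0.20 in H460 and had a change of 0.042 ± 0.11 in H1299 from a level of 2.87. NAP1L2 differed by -1.6 ± 0.16, the neurofilament gene NEFL by -1.56 ± 0.23 and COX7B by -1.56 ± 0.28, and all 3 rose in H460 (by 0.86, 1.05 and 1.09). The U4 gene RNU4-2 differed by -2.0 ± 0.40, but not past the threshold with only 0 h replicates 4 to 6 (-1.36, adjusted p = 0.0601), with which its H1299 change was -0.48 (0.158). In H1299 the calls of NEFL (-0.51 ± 0.18) and RNU4-2 (-0.90 ± 0.26) were lost without single arrays: NEFL without 8 h replicate 1 or 3 (0.199 and 0.109) or 0 h replicate 2, 3 or 5 (0.0572 to 0.0753), RNU4-2 without 8 h replicate 2 or 3 (0.0761 and 0.0679). With array width as a covariate the H1299 change was -0.27 for NEFL (adjusted p = 0.432), -0.92 for COX7B (0.000227) and 0.072 for FAM111B (0.667). COX7B (-0.47 ± 0.18, adjusted p = 0.0602) was called without 0 h replicate 2 (-0.61, adjusted p = 0.00369), and CCNE2 likewise (-0.33, 0.0149). FAM111B was called without 0 h replicate 5 (0.26, 0.0081).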

How the data were processed

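Total RNA (100 ng per array) was labelled and hybridised to Affymetrix arrays, per the labels' protocols. The deposited values are log2 summaries made by the authors; the normalization, software and genome build are not given in the sources used here. Of 32321 entries, 19158 carried 1 gene symbol in the platform annotation, 1388 several and 11775 none; 754 further entries of a gene were dropped, leaving 18404 genes. No pair of arrays held identical values.

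The H1299 contrasts were fitted with limma 3.58.1 in R 4.3.3 (lmFit, then eBayes with a mean trend) over the 21 H1299 arrays, and the line difference over all 42, with Benjamini-Hochberg adjustment over all genes and a threshold of 0.05. Alternatives were other priors, filters, normalizations, sample sets, array weights, a replicate block, array width as a covariate and leaving out single arrays; the method was tested on simulated data with 200 changed genes.

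The genes named were the 15 largest rises and falls without overlap between the groups (microRNA, small nucleolar, LOC, LINC, open reading frame and antisense symbols left out), up to 6 members of each list by smallest p, CDKN1A and MDM2, the 5 largest line differences on each side without overlap in at least 1 line, and 4 genes with a printed promoter; others are said to be named after their values were seen. The members and lists were chosen with earlier results of these data known. Promoters are RefSeq's (GRCh38.p14), in the table for 13766 of 16897 protein-coding genes tested (81.5%). The other members of short counts (5 or fewer) were also named after their values were seen.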

Additional observations from a re-analysis of the deposited data

Results flagged for a closer look

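Of 181 of the genes named, 18 had 1 array among the 6 at 0 h whose gap to its nearest neighbour was large for the range of the group, by Dixon's test. Chance gives such an array in about 1 in 20 independent groups, but these genes share the same 6 arrays, and the share over all genes was not computed. In 15 of these genes it was 0 h replicate 2, the array with the narrowest distribution. That array was lowest for SLC5A3 (6.13), RNVU1-15 (7.64), CCN1 (9.99), RNVU1-4 (4.55), KIF11 (8.29), ESCO1 (6.28), RB1 (8.04), SMG1 (8.47), PLK2 (8.35), ERRFI1 (10.32), RPL35 (11.73), POLR1B (7.72) and CDC25A (8.06), and highest for CES1 (8.04) and HRK (8.22). Replicate 1 was highest for BLID (5.36), replicate 5 highest for FAM111B (8.33) and replicate 3 lowest for PSRC1 (8.10).

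Of 181 of the genes named, 84 differed in the 8 h change between H1299 and H460, by limma's test of the difference with adjusted p under 0.05 over all genes. That test called 10.1% of all genes. The genes were named for the size or p of their change, some for this difference itself, so the count of 84 follows in part from the choice. The values that follow are the H1299 change minus the H460 change on the log2 scale. The difference was above 0 for 44 genes, the largest being those of ZBTB41 (1.74), FAM111B (1.57), CCNE2 (1.52), BLID (1.48), TAS2R31 (1.4), ZNF441 (1.13), KLF6 (1.12), SPRY4 (1.07), BRIP1 (1.02), TEX15 (1.01), TGFB2 (0.99), SKIL (0.99), TAS2R20 (0.98) and RIF1 (0.93). Smaller positive differences were those of TNFRSF10A (0.93), LIF (0.92), NFKB2 (0.89), CDK6 (0.86), CASP2 (0.84), SNORD52 (0.81), EPHA2 (0.78), POLA1 (0.77), POLR1B (0.73), SAMD9 (0.71), SLC5A3 (0.70), PHLDA1 (0.67), E2F7 (0.66) and TICRR (0.65). Then came ZNF292 (0.64), WASHC1 (0.63), SMARCAD1 (0.62), CEP97 (0.61), SMG1 (0.61), IER2 (0.60), SMC2 (0.55), POLQ (0.52), HJURP (0.51), NIPBL (0.50), PRKDC (0.50), DUSP6 (0.47), MYOF (0.46) and LUC7L3 (0.45). Then came TOP2A (0.38) and MCL1 (0.37).

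The difference was below 0 for 40 genes, with the largest size for RNU4-2 (-2.0), TDO2 (-1.97), NAP1L2 (-1.6), NEFL (-1.56), COX7B (-1.56), DUSP1 (-1.51), ID2 (-1.46), RNU4ATAC (-1.27), TP53INP1 (-1.18), RNVU1-15 (-1.15), PLK2 (-1.15), COX7C (-1.10), BRF2 (-1.05) and HERPUD1 (-1.04). Next in size were RNU11 (-0.99), SNORD13 (-0.96), NFKBIA (-0.92), TALDO1 (-0.88), NDUFA9 (-0.86), PCNA (-0.84), GADD45A (-0.83), CDKN1A (-0.80), ID4 (-0.80), RPL7A (-0.80), RPL35 (-0.79), CYCS (-0.79), RPS13 (-0.74) and NDUFB9 (-0.74). The rest in order were CCN1 (-0.72), RNVU1-4 (-0.71), CASP6 (-0.68), DNAJB9 (-0.59), XBP1 (-0.57), GINS2 (-0.55), GADD45B (-0.48), NSL1 (-0.44), MDM2 (-0.43), CCNB1 (-0.43), MRTO4 (-0.42) and CKS1B (-0.42).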

How the results depend on the processing

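The 4524 genes called at 8 h against 0 h became 2865 with array width as a covariate and 2628 to 4514 with single arrays left out, the lowest without 8 h replicate 3; the other settings gave 3131 to 5311. The 1861 line differences became 4200 with array weights, 1013 with 0 h replicates 4 to 6 only and 1257 to 2397 with single arrays left out. The 52 genes that differed between 8 and 4 h became 20 without a trend in the prior, 17 over all entries, 554 in a fit of only the groups compared, 10 over all 42 arrays, 434 with array weights, 91 with array width and 5 to 8 with single arrays left out, so this count depends on the fit. Between 12 and 8 h the count of 0 became 13 with only the groups compared, 15 with array weights and 0 to 1 with single arrays left out, the 1 being without 12 h replicate 2. The causes were not tested.

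With the replicate number as a replicate block the counts were 3779 (3436 shared with the fit without it), 1414, 29 and 0. The main fit had no block because the labels do not say that a replicate number marks a shared batch. The deviations of same-numbered arrays at 0 and 8 h correlated at -0.16, 0.096 and 0.16. Those of differently numbered arrays ran from -0.25 to 0.22. With so few arrays of unlike width these values cannot show whether the arrays are paired.

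After quantile normalization 52.2% of the genes called at 8 h were higher, against 61.2%. None of the named genes' changes at 8 h reversed sign with a call under the alternatives run. On simulated data for 8 h against 0 h, 99 of 100 genes changed by 1 and 67 of 100 changed by 0.5 were recovered; for the line difference these were 90 and 26. Arrays give no read depth, and the number of arrays, 3 at 8 h, limits the precision.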

Other observations

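The length of a gene in the genome, from the RefSeq table, went along with its change at 8 h; this was looked at after the data were seen and is given without a test. Protein-coding genes above the median 0 h level were divided into 5 groups of like size by span, with median spans of 5.16, 15.3, 30.7, 59.2 and 146 kb. In H1299 the median change at 8 h was -0.093, -0.0065, 0.057, 0.13 and 0.18 from the shortest to the longest group. The share called higher was 7.68%, 16.4%, 25.5%, 35.4% and 44.1%, and the share called lower 20.5%, 12.6%, 10.1%, 6.84% and 5.16%. In H460 the medians were 0.035, 0.12, 0.13, 0.14 and 0.12, and 14.5%, 19.9%, 17.7%, 15.9% and 13.3% were called higher, and 6.78%, 3.7%, 3.14%, 2.02% and 2.35% lower. Over all protein-coding genes, divided the same way, the medians were -0.13, -0.081, -0.024, 0.032 and 0.046 in H1299 and -0.13, -0.051, 0.014, 0.046 and 0.020 in H460, so that the lines looked more alike there. Genes of a group are not independent, and array width differs between the times.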
